A study of Arabidopsis thaliana with 10 samples.

Results

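The nuclear genes of the mitochondrial respiratory chain were compared between roots of mcu123 and of the Col-0 wild type of Arabidopsis thaliana, complex by complex and paralogue by paralogue. The members are 39 loci named in advance by their locus codes, 39 of 27826 rows in the deposited table, and all 39 were found there. They comprise 15 genes of complex I, 4 of complex II, 8 of complex III, 3 of complex IV, 7 of the ATP synthase and 2 of cytochrome c. No measured value entered their selection rule, although earlier results of these arrays were known when it was written. The mcu123 group, given in the labels as a triple knockout of MCU genes, had 5 arrays, and the wild type Col-0 had 5. Both genotypes were sampled as roots of 20-day-old seedlings from sterile hydroponics with 0.1% sucrose, on days of 16 h at 21 °C and dark nights of 8 h at 17 °C. Each array carried RNA from pooled roots, and which alleles make up the knockout is not given in the sources used here. Nothing in the labels says that the pools were grown separately, so p-values reflect only how these pools varied, which may be technical.

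The respiratory chain passes electrons from NADH (complex I) and succinate (complex II) through ubiquinone to complex III, then by cytochrome c to complex IV, which reduces oxygen. Proton pumping along this path drives the ATP synthase. In plants, complex I carries an additional domain of gamma carbonic anhydrases, and the subunits of complex III that cleave targeting peptides serve as the mitochondrial processing peptidase. MCU proteins form the pore of the mitochondrial calcium uniporter, and calcium in the matrix is known, mainly from animals, to stimulate dehydrogenases that feed the chain. In bulk roots a change in RNA per cell and a change in the share of cells of a type cannot be told apart.

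The reference gene table gives a symbol to 22 of the 39 members. The other 17 are written by their locus codes, and their subunits are given from general knowledge of Arabidopsis genes. All values are the authors' log2 intensities, and differences are mcu123 minus Col-0 on that log2 scale. Intensities depend on the probes, so levels of different genes are not set against each other. The targeted MCU genes have no symbol in the reference table, and their names and loci are given from general knowledge. They were lower in mcu123 at 2 of 3 loci. The log2 difference was -1.98 (SE 0.16) for MCU3 (AT2G23790) and -1.66 (SE 0.13) for MCU1 (AT1G09575), both at limma adjusted p = 4.0e-04. MCU2 (AT1G57610) lay low in both groups at a difference of -0.09, and the position of its probes is not given in the sources used here. Over all rows, the correlation of pairs of arrays was 0.966 to 0.991 within a genotype, and 0.969 to 0.990 between genotypes. The arrays weighted lowest in each genotype were mcu123 replicate 3 (0.394) and Col-0 replicate 2 (0.644), called the outlying arrays below. The weight of mcu123 replicate 2, at 0.665, was close to that of Col-0 replicate 2. Root markers chosen for root hair, endodermis, phloem, and meristem and dividing cells were measured above the array median of 4.30 in 10 of 11 cases, whereas 2 of 3 xylem markers and 2 of 4 photosynthetic shoot markers averaged below it.

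No member passed the test. With limma and Benjamini-Hochberg adjustment over all rows, 0 of 39 members were called at an adjusted p under 0.05, where 0.0431% of all rows (12) were called. At an unadjusted p under 0.05 there were 4 members, all higher in mcu123, and 7.46% of all rows reached that level. That number was 1 without mcu123 replicate 2 or 4, 2 without mcu123 replicate 1 or 5 or Col-0 replicate 2 or 4, and 10 without mcu123 replicate 3. None of the 39 had groups that did not overlap, against 1.70% of all rows. Within these limits the direction was mostly shared: 32 of 39 members had a higher mean in mcu123, where 52.7% of all rows did. The median log2 difference of the members was 0.13, that of all rows 0.01, and that of the brightest 70% of rows, which hold all 39 members, 0.02. Differences of members ran from -0.45 to 0.39. The 95% interval lay within a 2-fold change in either direction (1 on the log2 scale) for all 39 members, and within 0.5 for 27 of them. The interval included 0 for 35 members. A difference that misses the threshold does not show that a member is unchanged.

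**Figure D1:**
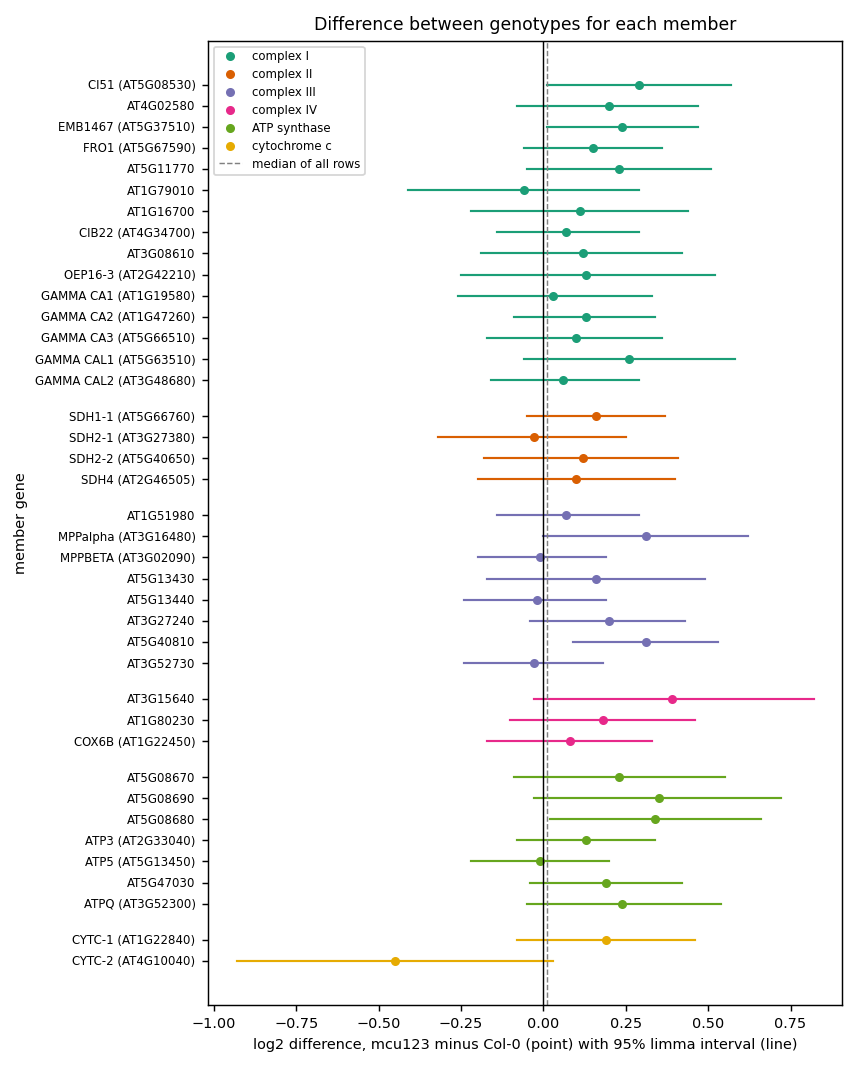
Log2 difference between mcu123 and Col-0 for each of the 39 members (points) with its 95% limma interval (lines), ordered and coloured by complex; the dashed line is the median of all rows (0.01). Most points lie right of 0, between 0 and 0.39, CYTC-2 stands alone at -0.45, and 35 of the 39 intervals include 0.

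The members also varied together from array to array within a genotype. Col-0 replicate 2 was the lowest of all 10 arrays for 25 of 39 members, and for 15.4% of all rows. At the other end, mcu123 replicate 2 was the highest array for 18 members and mcu123 replicate 5 for 9, against 16.5% and 10.3% of all rows. Within mcu123, replicate 3 was the lowest array for 25 members. Averaged over all members after centring each gene on its own mean, the deviations were 0.06, 0.17, -0.07, 0.06 and 0.11 in mcu123 replicates 1 to 5 and 0.00, -0.26, 0.00, -0.02 and -0.07 in Col-0 replicates 1 to 5. The groups overlapped through mcu123 replicate 3, which lay at the level of Col-0 replicate 5. Without Col-0 replicate 2 and mcu123 replicate 3, a fit chosen after seeing the data, the median difference was 0.14 and 33 members were higher in mcu123. Each of these arrays had the lowest mean of its group, so their removals act in opposite directions. The median was 0.11 without Col-0 replicate 2 alone and 0.19 without mcu123 replicate 3 alone. It was 0.11 without mcu123 replicate 2 alone, and no fit left out replicate 2 of both genotypes. In 11 members exactly 4 of the 5 mcu123 arrays lay above every Col-0 array, as did 3.76% of all rows, and in 7 of the 11 the remaining array was mcu123 replicate 3. This count was not among the planned results. The members varied together across arrays, so the 11 are not independent of each other.

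**Figure D2:**
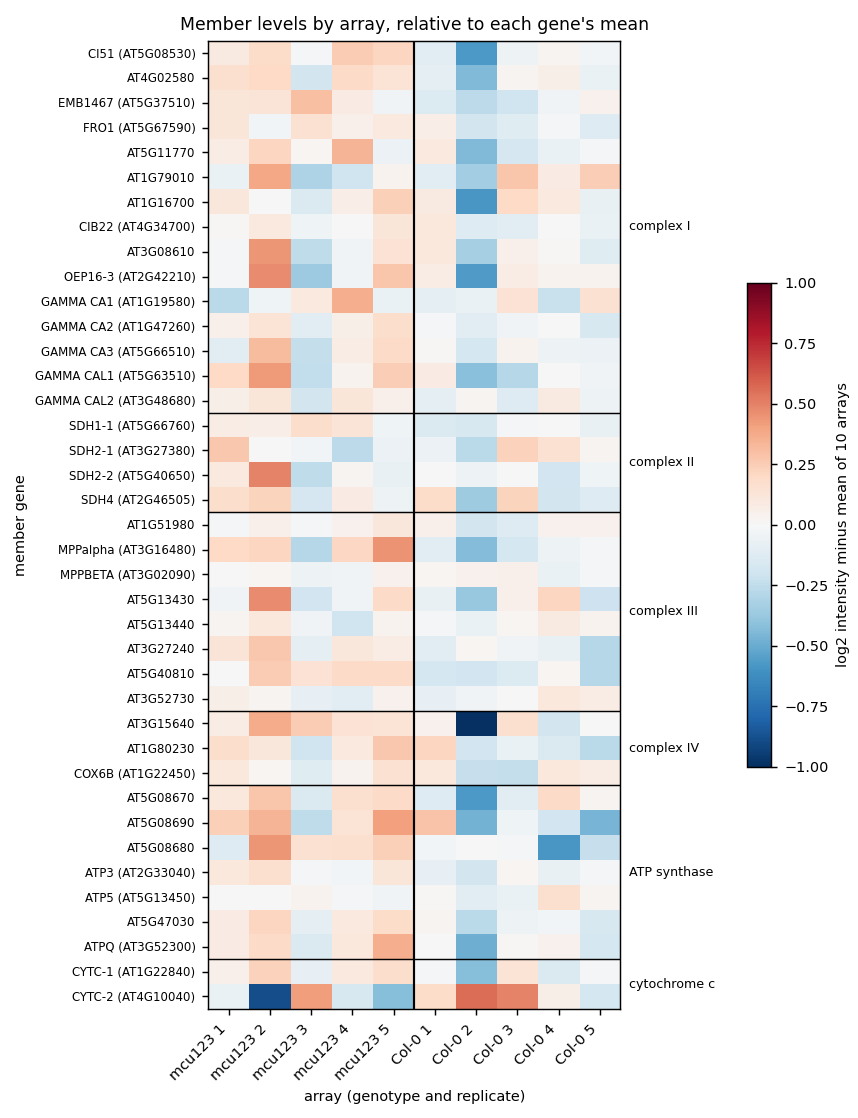
Deviation of each member from its own mean over the 10 arrays (colour, log2 intensity), with mcu123 arrays left and Col-0 arrays right and the complexes separated by lines. Col-0 replicate 2 is the lowest array for 25 of 39 members and mcu123 replicate 2 the highest for 18, and CYTC-2 in the last row runs the other way on both arrays.

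Complex I, the entry point for NADH, had a higher mean in mcu123 for 14 of its 15 genes, with a median difference of 0.13 and a range from -0.06 to 0.29. Its genes averaged 0.07 ± 0.11 in mcu123 and -0.07 ± 0.13 in Col-0 around their own means (log2, SD over arrays, n = 5 each). The median was 0.08 without Col-0 replicate 2 and 0.13 without both outlying arrays.

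The NADH-binding arm held the 2 members of complex I at an unadjusted p under 0.05. CI51 (AT5G08530), the subunit that binds NADH and its flavin cofactor, measured 8.40, 8.50, 8.30, 8.57 and 8.53 in mcu123 replicates 1 to 5, against 8.21, 7.74, 8.26, 8.34 and 8.29 in Col-0 replicates 1 to 5. All mcu123 arrays but replicate 3 lay above every Col-0 array, and Col-0 replicate 2 stood apart as the lowest. The difference was 0.29 (SE 0.13, 95% interval 0.01 to 0.57, limma adjusted p = 0.65), and 0.23 without both outlying arrays. EMB1467 (AT5G37510), the large iron-sulfur subunit of the same arm, measured 8.85, 8.86, 9.03, 8.81 and 8.69 in mcu123, against 8.59, 8.47, 8.53, 8.69 and 8.77 in Col-0. Only mcu123 replicate 5 lay inside the Col-0 range, and the difference was 0.24 (SE 0.11, limma adjusted p = 0.65). AT4G02580, the smaller iron-sulfur partner of CI51, averaged 8.94 ± 0.16 in mcu123 and 8.74 ± 0.20 in Col-0, with a difference of 0.20 that was 0.11 without Col-0 replicate 2. FRO1 (AT5G67590), an accessory subunit whose mutant is sensitive to cold, averaged 8.12 ± 0.07 in mcu123 and 7.97 ± 0.10 in Col-0. The mean of these 4 genes lay between 0.06 and 0.14 in the mcu123 arrays and between -0.36 and 0.01 in the Col-0 arrays. These ranges did not overlap, although none of the 4 genes alone separated the groups. The means of the other arms overlapped, as did that of complex I (-0.10 to 0.20 in mcu123, -0.30 to 0.00 in Col-0). How often means of other gene sets separate was not examined, and no test is given for a mean over members.

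The ubiquinone-binding arm was less uniform. AT5G11770, the iron-sulfur subunit next to the ubiquinone site, averaged 8.00 ± 0.16 in mcu123 and 7.77 ± 0.20 in Col-0, with a difference of 0.23 that was 0.15 without Col-0 replicate 2. Of the 2 loci for the ferredoxin-like subunit of this arm, AT1G79010 had a difference of -0.06 and AT1G16700 one of 0.11. Each changed sign when a single array was left out: AT1G79010 was at 0.01 without mcu123 replicate 3, and AT1G16700 at -0.02 without Col-0 replicate 2.

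Among the accessory subunits of the membrane arm, CIB22 (AT4G34700) differed by 0.07, AT3G08610 by 0.12 and OEP16-3 (AT2G42210), a protein of the inner-membrane translocase family, by 0.13. The difference of AT3G08610 was 0.02 without mcu123 replicate 2 and 0.05 without Col-0 replicate 2. OEP16-3 measured 7.63, 8.12, 7.28, 7.61 and 7.92 in mcu123, against 7.72, 7.08, 7.72, 7.68 and 7.68 in Col-0. Replicate 2 of Col-0 was far below the 4 others, which agree to within 0.04, and its removal left a difference of 0.01. Mcu123 replicates 1, 3 and 4 lay below those 4 Col-0 arrays, and mcu123 replicates 2 and 5 above them.

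The gamma carbonic anhydrase domain, which is attached to the membrane arm on the matrix side, had 5 of 5 genes with a higher mean in mcu123 and a median difference of 0.10, which was 0.05 without mcu123 replicate 2 and 0.17 without mcu123 replicate 3. GAMMA CAL1 (AT5G63510) averaged 7.09 ± 0.25 in mcu123 and 6.83 ± 0.21 in Col-0 (difference 0.26, SE 0.15, limma adjusted p = 0.75). GAMMA CA2 (AT1G47260) averaged 9.03 ± 0.11 in mcu123 and 8.90 ± 0.07 in Col-0, and 4 of its 5 mcu123 arrays lay above every Col-0 array. Differences of GAMMA CA3 (AT5G66510), GAMMA CAL2 (AT3G48680) and GAMMA CA1 (AT1G19580) were 0.10, 0.06 and 0.03, that of GAMMA CA3 was 0.03 without mcu123 replicate 2, and that of GAMMA CA1 -0.05 without mcu123 replicate 4.

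Complex II, which oxidises succinate and also belongs to the tricarboxylic acid cycle, had 3 of 4 genes with a higher mean in mcu123 and a median difference of 0.11. That median was 0.03 without mcu123 replicate 2, 0.07 without Col-0 replicate 2 and 0.10 without both outlying arrays. SDH1-1 (AT5G66760), the flavoprotein that binds succinate, measured 8.72, 8.71, 8.82, 8.77 and 8.60 in mcu123, against 8.50, 8.48, 8.63, 8.64 and 8.57 in Col-0. Only mcu123 replicate 5 lay within the Col-0 range, and the difference of 0.16 (SE 0.10) had a limma adjusted p of 0.77. The iron-sulfur subunit is encoded by paralogues, of which SDH2-2 (AT5G40650) averaged 7.07 ± 0.28 in mcu123 and 6.95 ± 0.08 in Col-0. Its difference of 0.12 was 0.01 without mcu123 replicate 2. SDH2-1 (AT3G27380) was the single member below the array median, at 3.28 ± 0.19 in mcu123 and 3.32 ± 0.19 in Col-0, so it may not have been separated from background. The membrane anchor SDH4 (AT2G46505) differed by 0.10, and by 0.03 without Col-0 replicate 2. Means of the complex per array overlapped widely, from -0.07 to 0.19 in mcu123 and from -0.21 to 0.11 in Col-0.

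Complex III, which passes electrons from ubiquinol to cytochrome c, had 5 of 8 genes with a higher mean in mcu123 and a median difference of 0.12, which was 0.06 without Col-0 replicate 2, 0.07 without mcu123 replicate 2 and 0.10 without both outlying arrays. AT5G40810, a cytochrome c1 gene, had the smallest p of all members and measured 7.56, 7.81, 7.70, 7.75 and 7.75 in mcu123, against 7.38, 7.37, 7.42, 7.58 and 7.27 in Col-0. The groups overlapped only through mcu123 replicate 1 and Col-0 replicate 4, which were 7.56 and 7.58. Its difference was 0.31 (SE 0.10, 95% interval 0.09 to 0.53, limma adjusted p = 0.48), and it ranged from 0.28 to 0.36 with each array left out. A total of 599 rows of the table had a smaller p. AT3G27240, the other cytochrome c1 gene, averaged 7.0 ± 0.13 in mcu123 and 6.81 ± 0.11 in Col-0, with a difference of 0.20 (SE 0.11, limma adjusted p = 0.74).

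The subunits shared with the processing peptidase, which removes targeting peptides from imported proteins, differed among themselves. MPPalpha (AT3G16480) measured 7.08, 7.10, 6.60, 7.09 and 7.33 in mcu123, against 6.78, 6.45, 6.71, 6.83 and 6.87 in Col-0. All mcu123 arrays but replicate 3 lay above every Col-0 array, and the difference was 0.31 (SE 0.14, limma adjusted p = 0.67), or 0.42 without that array. AT1G51980, the second locus for the alpha subunit, differed by 0.07 and MPPBETA (AT3G02090) by -0.01. MPPBETA was among the steadiest members, with 9.60 ± 0.04 in mcu123 and 9.60 ± 0.05 in Col-0. The 95% interval of its difference, -0.20 to 0.19, spans ratios of 0.868 to 1.14.

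The Rieske iron-sulfur protein is encoded by neighbouring loci with no protein-coding gene between them in the reference order, and ATP5 of the ATP synthase follows directly. AT5G13430 averaged 6.10 ± 0.26 in mcu123 and 5.94 ± 0.23 in Col-0, and AT5G13440 8.39 ± 0.12 in mcu123 and 8.41 ± 0.06 in Col-0, with differences of 0.16 and -0.02. The first was 0.06 without mcu123 replicate 2. AT3G52730, a small subunit of the complex, differed by -0.03 (95% interval -0.24 to 0.18).

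Complex IV, the terminal oxidase, had a higher mean in mcu123 for 3 of 3 genes and a median difference of 0.18. AT3G15640, a locus for the zinc-binding subunit COX5b, measured 8.94, 9.24, 9.12, 9.01 and 9.0 in mcu123, against 8.91, 7.87, 9.03, 8.68 and 8.86 in Col-0. Col-0 replicate 2 was lower than every other array by more than the whole spread of the mcu123 group, and the difference of 0.39 (SE 0.19, limma adjusted p = 0.71) was 0.19 without it and 0.18 without both outlying arrays. The second COX5b locus, AT1G80230, averaged 7.09 ± 0.18 in mcu123 and 6.90 ± 0.19 in Col-0, and its difference of 0.18 was 0.16 without that array. COX6B (AT1G22450), a subunit on the intermembrane-space side, differed by 0.08, and by 0.03 without Col-0 replicate 2.

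The ATP synthase had 6 of 7 genes with a higher mean in mcu123 and a median difference of 0.23. That median was 0.15 without Col-0 replicate 2 and 0.19 without both outlying arrays. Differences between complexes were not tested. The catalytic beta subunit is encoded by 3 loci that lie side by side in the reference order and are closely alike in sequence, so their probes may pick up each other's transcripts and the 3 rows are uncertain as separate measurements. AT5G08680 measured 7.62, 8.19, 7.90, 7.91 and 7.99 in mcu123, against 7.72, 7.75, 7.74, 7.17 and 7.52 in Col-0. The arrays overlapped only through mcu123 replicate 1, and the difference was 0.34 (SE 0.15, 95% interval 0.02 to 0.66, limma adjusted p = 0.63). AT5G08690 measured 7.83, 7.93, 7.34, 7.73 and 8.00 in mcu123, against 7.88, 7.12, 7.55, 7.40 and 7.13 in Col-0, and its groups overlapped over most of their range (difference 0.35, SE 0.17, limma adjusted p = 0.70). AT5G08670 averaged 10.54 ± 0.16 in mcu123 and 10.31 ± 0.28 in Col-0, and its difference of 0.23 was 0.12 without Col-0 replicate 2 and 0.18 without both outlying arrays. The array that stood low in Col-0 was thus replicate 2 for AT5G08670, replicates 2 and 5 for AT5G08690 and replicate 4 for AT5G08680.

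**Figure D3:**
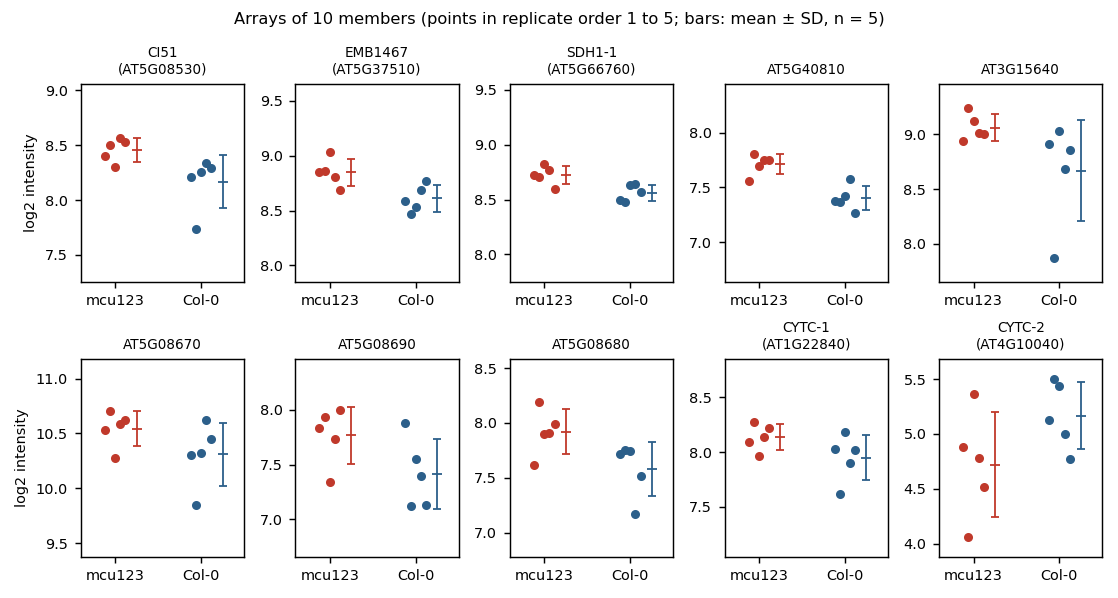
Log2 intensity of 10 members in the 5 mcu123 arrays (left) and 5 Col-0 arrays (right) of each panel, with mean and SD as bars; all panels span the same number of log2 units. AT5G40810 is at 7.56 to 7.81 in mcu123 and 7.27 to 7.58 in Col-0, Col-0 replicate 2 of AT3G15640 is at 7.87, and CYTC-2 is the panel with the lower mean in mcu123.

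Of the stalk subunits of the ATP synthase, ATP3 (AT2G33040), the gamma subunit that rotates inside the catalytic head, averaged 9.22 ± 0.09 in mcu123 and 9.09 ± 0.07 in Col-0, a difference of 0.13. AT5G47030, which binds gamma in the central stalk, averaged 9.65 ± 0.12 in mcu123 and 9.46 ± 0.12 in Col-0, a difference of 0.19 (SE 0.11). In the peripheral stalk, which holds the head still, ATPQ (AT3G52300) measured 9.04, 9.15, 8.81, 9.06 and 9.32 in mcu123, against 8.96, 8.47, 8.97, 9.0 and 8.78 in Col-0. Every mcu123 array but replicate 3 exceeded the highest Col-0 array, and the difference of 0.24 (limma adjusted p = 0.75) was 0.15 without Col-0 replicate 2 and 0.22 without both outlying arrays. ATP5 (AT5G13450), the subunit that caps the head, averaged 9.82 ± 0.03 in mcu123 and 9.83 ± 0.11 in Col-0, a difference of -0.01 (95% interval -0.22 to 0.20).

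Cytochrome c, the soluble carrier between complexes III and IV, had 1 gene with a higher and 1 with a lower mean in mcu123. CYTC-1 (AT1G22840) measured 8.09, 8.27, 7.96, 8.14 and 8.22 in mcu123, against 8.03, 7.62, 8.18, 7.90 and 8.02 in Col-0. The arrays of both genotypes overlapped, and the difference of 0.19 (SE 0.12, limma adjusted p = 0.79) was 0.11 without Col-0 replicate 2 and 0.15 without both outlying arrays. CYTC-2 (AT4G10040) measured 4.88, 4.06, 5.36, 4.78 and 4.52 in mcu123, against 5.13, 5.50, 5.44, 5.0 and 4.77 in Col-0. Its lowest array was mcu123 replicate 2 and its highest Col-0 replicate 2, the reverse of the 25 members that were lowest in Col-0 replicate 2, and mcu123 replicate 3 was the highest of its group. The difference was -0.45 (SE 0.22, 95% interval -0.93 to 0.03, limma adjusted p = 0.70), the lowest of the 39 members. It was -0.29 without mcu123 replicate 2, -0.61 without mcu123 replicate 3 and -0.53 without both outlying arrays.

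**Figure D4:**
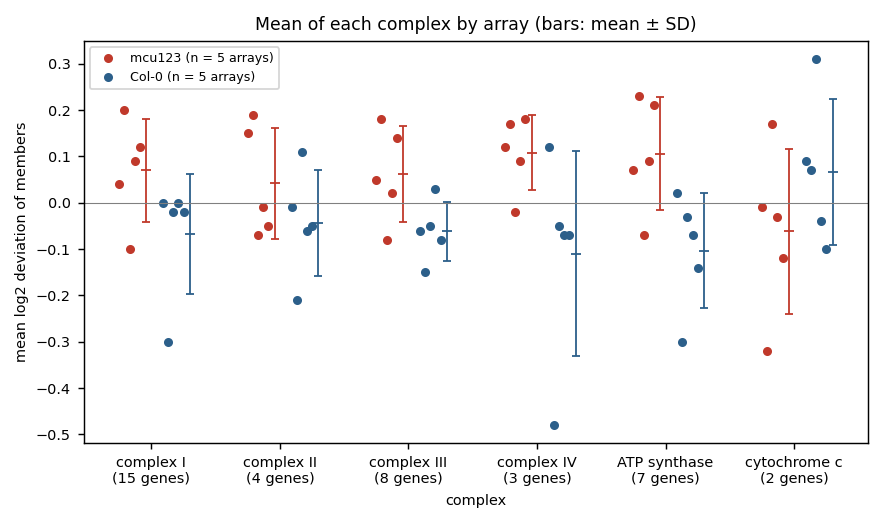
Mean deviation of the members of each complex from their own means (log2), for 5 mcu123 arrays (left of each pair) and 5 Col-0 arrays (right), with mean and SD as bars. Ranges of the genotypes overlap in every complex, Col-0 replicate 2 is the low point of complexes I to IV and of the ATP synthase, and cytochrome c has the lower mean in mcu123.

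Paralogues were compared as the log2 ratio of both genes within each array, which asks whether they differed unequally between genotypes and not which is the more abundant. Across 12 pairs no difference in ratio passed an exact two-sided permutation test (smallest p = 0.063, all Benjamini-Hochberg adjusted p at 0.48 or above). With 5 arrays against 5 this test can give no p under 0.0079, which for a single pair is 0.095 after adjustment. The largest difference was for CYTC-1 over CYTC-2. Its log2 ratio averaged 3.42 ± 0.59 in mcu123 and 2.78 ± 0.41 in Col-0, a difference of 0.64 (exact p = 0.095, adjusted p = 0.48), and mcu123 replicates 1 and 3 lay inside the Col-0 range. AT1G51980 over MPPalpha differed by -0.24, at 2.84 ± 0.22 in mcu123 and 3.08 ± 0.08 in Col-0 (exact p = 0.063, adjusted p = 0.48). Here mcu123 replicate 3, at 3.23, lay above every Col-0 array while the mean of the group lay below.

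GAMMA CAL1 over GAMMA CAL2 differed by 0.20 and AT5G13430 over AT5G13440 by 0.19 (exact p = 0.16 each). AT1G79010 over AT1G16700 differed by -0.17, SDH2-1 over SDH2-2 by -0.15, AT3G27240 over AT5G40810 by -0.11 and GAMMA CA1 over GAMMA CA2 by -0.10. AT3G15640 over AT1G80230 differed by 0.21 with an SD of 0.43 among Col-0 arrays, by 0.04 to 0.30 when 1 array was left out, and by -0.05 without both outlying arrays. The 3 pairs within the beta subunit differed by -0.12, -0.11 and 0.01. A difference that misses the threshold with 5 arrays per genotype does not show that paralogues respond alike.

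**Figure D5:**
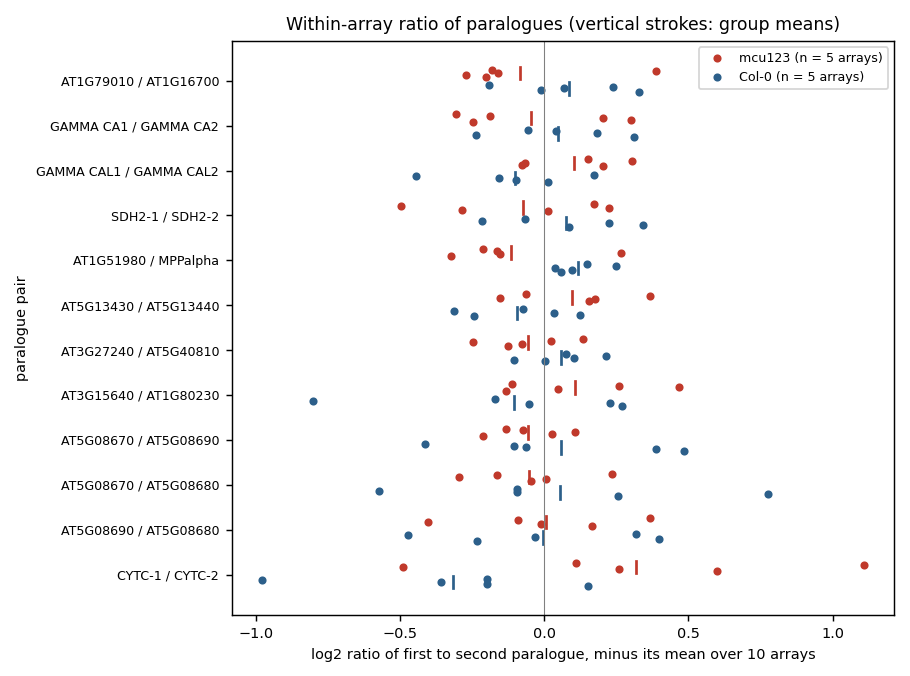
Log2 ratio of the first to the second paralogue in each array, centred on its mean over 10 arrays, for 12 pairs; mcu123 points lie above Col-0 points within each pair and strokes mark group means. The 2 genotypes overlap in all 12 pairs, and the CYTC-1 to CYTC-2 ratio has the widest gap between group means (0.64).

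Other nuclear subunits of the same complexes were listed from general knowledge. Of 48 listed loci 47 were in the table, and 41 had a higher mean in mcu123, where 52.7% of all rows did. Of the 47 loci, 0 passed limma's adjusted test in either direction and 1 was at an unadjusted p under 0.05, which 7.46% of all rows reached. Their median difference was 0.08, also without both outlying arrays. Col-0 replicate 2 was the lowest array for 21 of the 47 and mcu123 replicate 2 the highest for 28. By complex, 19 of 21 further genes of complex I were higher in mcu123 (median 0.07), 7 of 7 of complex II (0.12), 5 of 7 of complex III (0.13), 5 of 7 of complex IV (0.07) and 5 of 5 of the ATP synthase (0.12). The 7 of complex II include SDH6 (AT1G08480), at a difference of 0.00. Of the 47 loci, 8 averaged below the array median: 1 of complex I, 2 of complex II, 3 of complex III and 2 of complex IV. The gene of smallest p in complex I was AT2G20360, an accessory subunit of the matrix arm, at 9.05 ± 0.12 in mcu123 and 8.82 ± 0.20 in Col-0. In complex II it was SDH3-1 (AT5G09600), a membrane anchor, which measured 1.31, 5.10, 2.57, 2.99 and 3.33 in mcu123, against 2.33, 2.51, 0.60, 1.77 and 1.87 in Col-0. Its difference of 1.24 (SE 0.57, limma adjusted p = 0.67) lay near the bottom of the scale and leaned on mcu123 replicate 2. AT5G25450 of complex III differed by -0.47, AT3G62400 of complex IV by 0.46 and AT4G26210 of the ATP synthase by 0.21, with limma adjusted p-values of 0.78, 0.75 and 0.75. The first 2 leaned on Col-0 replicate 5. It measured 4.92 for AT5G25450, against 3.37 to 3.76 in the other Col-0 arrays, and 4.14 for AT3G62400, against 5.35 to 5.73. AT5G25450 averaged below the array median, at 3.36 in mcu123 and 3.84 in Col-0.

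Genes that assemble the complexes had a median difference of 0.09 over 13 loci, with 9 higher in mcu123 and 0 called by limma. At an unadjusted p under 0.05, which 7.46% of all rows reached, there was 1 gene of the 13, close to that share. That gene was AT1G02410, a copper chaperone of complex IV, at 6.02, 5.90, 5.94, 6.16 and 5.99 in mcu123, against 5.81, 5.71, 5.90, 5.75 and 5.76 in Col-0 (difference 0.22, SE 0.10, limma adjusted p = 0.67).

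Markers of cell types were set beside the members. Markers of meristem and dividing cells were lower in mcu123 in 3 of 3 cases (median difference -0.16), with a list mean of 4.20 to 4.50 in mcu123 and 4.42 to 4.63 in Col-0. The 3 were PLT1 of the meristem (-0.11) and the cyclins CYCB1;1 (-0.16) and CYCB1;2 (-0.30). CYCB1;2 averaged below the array median, at 3.21 in mcu123 and 3.51 in Col-0. Markers of endodermis were lower in 4 of 4 cases (median -0.22), with a list mean of 6.70 to 7.06 in mcu123 and 6.87 to 7.47 in Col-0, and the top list mean was that of Col-0 replicate 2. The 4 were CASP1 (-0.22), MYB36 (-0.21), CASP4 (-0.43) and SCR, which was near 0 (-0.03). Over all rows, 52.7% had a higher mean in mcu123. Lists for root hair, xylem, phloem and photosynthetic shoot had median differences of 0.14, -0.05, -0.40 and -0.02. Without both outlying arrays these 4 medians were 0.29, -0.09, -0.06 and 0.18, that of endodermis was -0.14 and that of meristem and dividing cells -0.22. In the phloem list SUC2, a sucrose transporter, measured 3.23 in mcu123 replicate 3 and 4.96 to 5.34 in the other mcu123 arrays, against 5.35 to 6.06 in Col-0. SUC2 differed by -0.85 and the other phloem marker, APL, by 0.04. No marker passed limma's adjusted test, and 3 were at an unadjusted p under 0.05, a level that 7.46% of all rows reached. They were CASP4 of endodermis, SUC2 and CYCB1;2, all lower in mcu123. CASP4 measured 4.71 to 4.98 in mcu123 and 5.07 to 5.43 in Col-0 (difference -0.43, limma adjusted p = 0.30). The groups of CASP4 did not overlap, as was true of 1.70% of all rows. Those of SUC2 also did not, by a narrow margin (at most 5.34 in mcu123, at least 5.35 in Col-0). The part of the markers in the members' differences was not tested.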

How the data were processed

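The authors deposited log2 intensities made with RMA, per the submitters' processing notes, as 27826 loci on 10 arrays. RMA corrects background, equalises the arrays' distributions and summarises probes. Sorted values were identical in all columns, so a shift shared by all genes cannot be seen. The array model, and likewise the probe grouping and build, is not given in the sources used here. No coordinates are therefore printed, and the RefSeq table of TAIR10.1 served for names and gene order.

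All rows were fitted with limma 3.58.1 in R 4.3.3 (lmFit, eBayes, genotype as the only term, Benjamini-Hochberg adjustment, threshold 0.05), a fit tested on simulated data. Paralogue ratios used exact permutation tests (scipy 1.17.1, 252 assignments). The members, lists and tests were chosen with earlier results of these data known. Named were all members, the MCU genes, some cell type markers and, of each further respiratory list, the called genes or else that of smallest p. Alternatives were dropping the dimmest 30% of rows, cyclic loess, a trended and robust prior, weighted arrays, a replicate block and leaving out each array. Deviations of same-numbered arrays correlated at -0.213 to 0.0933, so the numbers were not taken as pairs. The number of arrays limits the precision.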

Additional observations from a re-analysis of the deposited data

Results flagged for a closer look

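Among 116 sets of 5 arrays examined, 9 held an array far from the 4 others, where chance gives about 5.8, and many sets share genes. The value given for each is the distance to the next array divided by the range of the set. Col-0 replicate 2 was far below the other Col-0 arrays for CI51 (0.793), OEP16-3 (0.928), the mean of complex I (0.927) and the mean of all members (0.729). Col-0 replicate 4 was low for SDH2-2 (0.751), at 6.82. In mcu123, replicate 3 was low for AT4G02580 (0.846) at 8.66 and for GAMMA CAL2 (0.765) at 8.20, and high for the ratio of AT1G51980 to MPPalpha (0.715). Replicate 2 of mcu123 was high for the ratio of AT1G79010 to AT1G16700 (0.838), at 1.09.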

How the results depend on the processing

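The count of 0 members called held in all 16 alternatives, 32 to 35 members were higher in mcu123, and the median of each complex moved by less than the spread between arrays. A steady count of 0 does not show that members are unchanged, since small differences can miss the threshold. Over all genes the 12 calls became 30 with array weights, 35 with a trended and robust prior, 7 without the dimmest 30% of rows, 5 to 22 with 1 array left out (lowest on dropping Col-0 replicate 1 or 3 or mcu123 replicate 5, highest on dropping mcu123 replicate 3), and 7 without both outlying arrays. The 4 members at an unadjusted p under 0.05 became 7 with the trended and robust prior, 1 to 10 with 1 array left out and 8 without both outlying arrays. With the replicate number as a block they became 1, and 8 genes were called in all. Differences near 0 changed sign when 1 array was left out: AT1G79010 (-0.16 to 0.01), AT1G16700 (-0.02 to 0.17), GAMMA CA1 (-0.05 to 0.10), SDH2-1 (-0.10 to 0.03), MPPBETA (-0.03 to 0.01), AT5G13440 (-0.05 to 0.03) and ATP5 (-0.04 to 0.03). Without both outlying arrays MPPBETA was at 0.01. Among ratios of paralogues, AT5G08670 over AT5G08680 ran from -0.26 to 0.08 and AT5G08690 over AT5G08680 from -0.11 to 0.11 with 1 array left out, and without both outlying arrays the second was at -0.01. AT3G15640 over AT1G80230 ran from 0.04 to 0.30 with 1 array left out, and was at -0.05 without both. The causes were not tested. The replicate block changed no call of a member or ratio, and no array correlated best with the array of its own number. Fits without both outlying arrays were chosen after seeing the data. They drop the array of lowest member mean in each genotype and keep the high mcu123 replicate 2, so they do not check the dependence on that array.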
